A study of Homo sapiens with 9 samples.

Results

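The tumour suppressor p53 switches on genes that stop the cell cycle, genes that repair DNA, genes that start cell death and genes that switch p53 itself off again. The 10 genes described here were chosen by name as p53 targets of arrest and feedback, and they are CDKN1A, MDM2, CCNG1, BTG2, ZMAT3, SESN1, SESN2, PHLDA3, TP53INP1 and FDXR. Of these, 9 had a row among the 6499 genes of the deposited table, and CCNG1, a cyclin that recruits a phosphatase to MDM2, had none, so its RNA level was not analysed here. All 9 passed the filter of a mean of at least 1 TPM, as did 5721 of the 6499 genes.

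RNA came from WI-38, an established line of normal human lung fibroblasts that divides a limited number of times, at population doubling 30. The control group (3 libraries) received DMSO, the solvent, in place of drug and then DMSO-containing medium. The doxorubicin group (3 libraries) received 1 μM doxorubicin, an anthracycline that breaks DNA through topoisomerase II, for 12 h, and then 48 h in the same medium. Another 3 libraries, from cells given oridonin after doxorubicin, were not analysed here. The study's methods speak of independent experiments in general, but the labels do not say whether these replicates are separate cultures, so p-values measure only the spread between these libraries, which may be technical. WI-38 is 1 cell line, and the RNA is that of a whole culture, in which fewer cells of a kind and less RNA per cell cannot be told apart.

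In an undamaged cell, MDM2 keeps p53 short-lived. DNA breaks activate the kinases ATM and CHEK2, p53 escapes MDM2, and its targets are transcribed. Among them, CDKN1A encodes p21, which blocks cyclin-dependent kinases and is the best known brake on the cell cycle in senescent fibroblasts, while MDM2 and PPM1D close negative loops that return p53 to its low level. The sestrins and PHLDA3 act on the growth pathways of mTORC1 and AKT.

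Each value is in TPM (abundance scaled for gene length and library total), a unit that was inferred and is not named in the table. TPM does not hold read numbers, and library depth is therefore unknown. The listed genes had all passed the authors' thresholds on these same libraries, and no test given here is independent of that choice. A gene was called higher or lower where its fold change was over 1.2 and its unadjusted p under 0.05 by limma on log2(TPM + 1), and adjusted p-values are those of Benjamini and Hochberg over the 5721 genes. Log2 fold changes are those of this fit, while folds of means are ratios of mean TPM. The added 1 makes the fitted change smaller in size than that ratio, most of all in genes of low level. With 3 libraries against 3, an exact two-sided permutation test cannot give a p below 0.1. Libraries of 1 group correlated at 0.992 to 0.995 on the log2 scale across the genes tested and libraries of different groups at 0.935 to 0.958, and no library stood apart. The listed genes made up 54.3 to 54.8% of the total in control libraries and 58.6 to 59.97% in doxorubicin libraries. Over all genes tested the median log2 fold change came to -0.28, and this shift became -0.01 after quantile normalization and -0.08 after median ratio scaling. Of 10 fibroblast markers, 6 were in the table and all 6 were well expressed (FN1 called higher and 5 called lower), with COL1A1 (type I collagen) at 2780 to 2913 TPM in control and 1734 to 2201 TPM after doxorubicin. None of 4 endothelial markers was in the table, and of 6 blood markers PTPRC reached at most 0.62 TPM and CD68, a lysosomal protein, lay at 44.9 to 49.0 TPM in control and 87.3 to 93.4 TPM after doxorubicin. Of 5 epithelial markers, 3 were in the table, of which KRT19 and KRT18 were called higher and KRT8 was not. KRT19, a keratin, lay at 102 to 114 TPM in control and 235 to 256 TPM after doxorubicin, and the part of these markers in the results below was not tested.

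After doxorubicin, 7 of the 9 genes rose, namely FDXR, MDM2, CDKN1A, SESN1, BTG2, TP53INP1 and PHLDA3, and the same number passed with an adjusted p under 0.05. Over all genes tested, 23.4% were called higher and 49% lower, 72.4% in all (22.7%, 48.5% and 71.2% with adjusted p). In 8 of the 9 genes every doxorubicin library lay above every control library, against 32.3% of all genes tested (80.7% were separated in either direction). ZMAT3 overlapped between the groups, and SESN2 was separated but fell short of the fold threshold. The median log2 fold change was 0.68 for the 9 genes. None of the 9 genes was called lower.

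**Figure D1:**
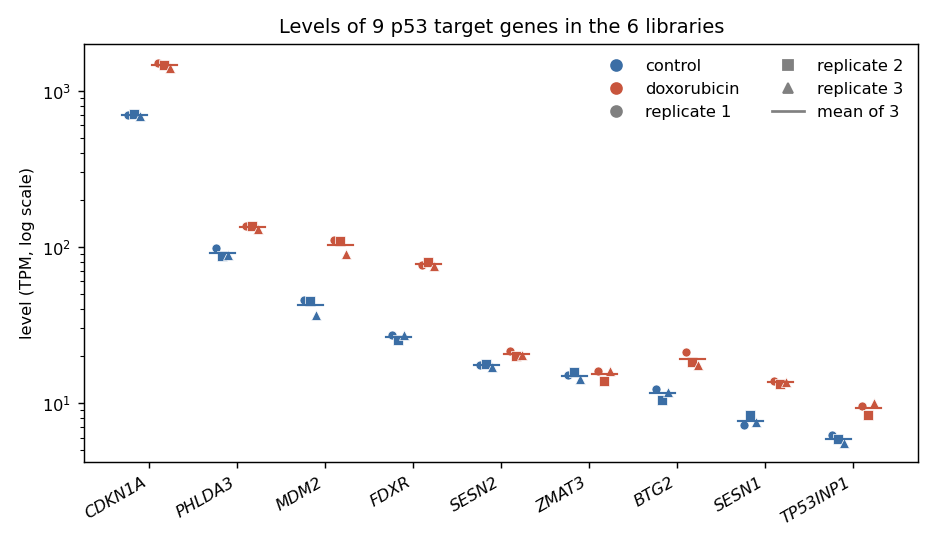
Levels of the 9 genes in the 6 libraries, in TPM on a log axis, with control in blue, doxorubicin in red, a symbol for each replicate and a line at the mean of 3 libraries. CDKN1A stands far above the other genes in both groups (696 and 1456 TPM), and only ZMAT3 overlaps between the groups.

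CDKN1A and BTG2 are the arrest genes of the set. CDKN1A (ENSG00000124762, chromosome 6, 36676460 to 36687339, GRCh38) measured 697, 709 and 683 TPM without the drug and 1502, 1466 and 1399 TPM with it. It was by far the most abundant of the 9 genes and was already high without the drug. The mean went from 696 ± 12.7 TPM to 1456 ± 52.0 TPM (SD, n = 3 each), a 2.09-fold rise. The log2 fold change was 1.06 (SE 0.05, 95% interval 0.95 to 1.17, limma adjusted p = 6.56e-08), and 92 of the 5721 genes tested rose by more. CDKN1A alone supplied 75.2 to 76.6% of the summed TPM of the 9 genes in control libraries and 78.6 to 79.0% in doxorubicin libraries, so that in molecules of RNA p21 outweighed the rest of the set together in every library.

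The primers used in the study to measure p21 by qPCR are shown because they tell which CDKN1A transcripts that assay sees. Both matched 7 of the 8 annotated CDKN1A transcripts, with a product of 139 bp, and no transcript of another gene.
p21 forward primer: tgtccgtcagaacccatgc
p21 reverse primer: aaagtcgaagttccatcgctc

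BTG2 (ENSG00000159388, chromosome 1, 203305491 to 203309602), which slows division and recruits the deadenylase that shortens mRNA tails, had 12.3, 10.5 and 11.7 TPM in control libraries. After doxorubicin it had 21.1, 18.3 and 17.6 TPM. All 3 treated libraries lay above all 3 controls, though the level stayed far below that of CDKN1A. The mean rose 1.65-fold, from 11.5 ± 0.925 to 19 ± 1.84 TPM (SD, n = 3 each). The fitted log2 fold change was 0.68 (SE 0.11, 95% interval 0.43 to 0.92, limma adjusted p = 0.000439).

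MDM2 and TP53INP1 feed back on p53 in opposite senses. MDM2 (ENSG00000135679, chromosome 12, 68808176 to 68850686), the ubiquitin ligase that sends p53 to the proteasome, had 45.8, 44.8 and 36.6 TPM in control libraries and 110, 109 and 90.0 TPM in doxorubicin libraries. Replicate 3 was the lowest of its group on both sides, and the gap between the groups was much wider than the spread within them. The mean rose 2.43-fold, from 42.4 ± 5.03 to 103 ± 11.2 TPM (SD, n = 3 each). The log2 fold change was 1.26 (SE 0.11, 95% interval 1.03 to 1.49, limma adjusted p = 6.42e-06). The 3′ part of MDM2 shares 8490 bp with CPM on the opposite strand, a carboxypeptidase gene at 1.35 to 4 TPM in the 6 libraries, and whether the reads were counted by strand is not stated.

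TP53INP1 (ENSG00000164938), a stress-induced nuclear protein that helps p53 to be phosphorylated, had 6.27, 5.91 and 5.52 TPM in control libraries and 9.56, 8.38 and 10.0 TPM in doxorubicin libraries. It was the least abundant of the 9 genes in both groups. Its mean rose 1.58-fold, from 5.90 ± 0.375 to 9.32 ± 0.850 TPM (SD, n = 3 each). The fitted log2 fold change was 0.58 (SE 0.12, 95% interval 0.32 to 0.84, limma adjusted p = 0.00152). The whole gene lies inside NDUFAF6 on the opposite strand, so without strand its reads cannot be assigned with certainty. CDKN1A shares 951 bp and SESN1 644 bp with a noncoding gene on the opposite strand. PHLDA3 shares 764 bp with one on its own strand.

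SESN1 and SESN2 encode sestrins, which hold back mTORC1 when amino acids or energy run short. SESN1 (ENSG00000080546, chromosome 6, 108986437 to 109094819) had 7.21, 8.37 and 7.6 TPM in control libraries and 13.9, 13.3 and 13.7 TPM after doxorubicin. The treated libraries were tightly grouped and far from the controls. The rise of the mean was 1.76-fold (7.73 ± 0.590 to 13.6 ± 0.286 TPM, SD, n = 3 each). The fitted log2 fold change was 0.75 (SE 0.11, 95% interval 0.51 to 0.98, limma adjusted p = 0.000193).

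SESN2 (ENSG00000130766, chromosome 1, 28259527 to 28282491) had 17.6, 17.7 and 16.97 TPM in control libraries and 21.5, 20 and 20.2 TPM after doxorubicin. The groups did not overlap, but the fitted fold was under the threshold of 1.2, as was the ratio of the means (1.18), and the gene was not called. Its log2 fold change was 0.22 (SE 0.09, 95% interval 0.03 to 0.42, limma adjusted p = 0.0377). It was called higher after quantile normalization (0.41, with 33.5% of all genes called higher) and after median ratio scaling (0.44, with 44.1% called higher). The ratio of SESN1 to SESN2 within a library, which a single factor per library cannot alter, was 0.409, 0.472 and 0.448 in control libraries and 0.647, 0.667 and 0.677 after doxorubicin.

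PHLDA3 (ENSG00000174307, chromosome 1, 201464383 to 201469237), whose PH domain competes with AKT for membrane lipids, was the most abundant of the 9 genes after CDKN1A. It had 97.7, 87.9 and 88.7 TPM in control libraries and 135, 136 and 129 TPM after doxorubicin. The fold was moderate but the replicates were close. The mean rose 1.46-fold, from 91.5 ± 5.43 to 133 ± 3.60 TPM (SD, n = 3 each). The fitted log2 fold change was 0.54 (SE 0.06, 95% interval 0.40 to 0.68, limma adjusted p = 6.6e-05).

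FDXR (ENSG00000161513, chromosome 17, 74862497 to 74873031) encodes ferredoxin reductase, the mitochondrial enzyme that passes electrons from NADPH to the ferredoxins for steroid and iron-sulphur cluster synthesis. It had 27.3, 25.2 and 27.2 TPM in control libraries and 76.8, 80.5 and 75.8 TPM after doxorubicin. This was the largest rise among the 9 genes, with replicates that differed little in either group. The mean rose 2.93-fold, from 26.6 ± 1.16 to 77.7 ± 2.44 TPM (SD, n = 3 each). The log2 fold change was 1.51 (SE 0.07, 95% interval 1.36 to 1.67, limma adjusted p = 8.56e-08), which ranked 35 among the 5721 genes tested.

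ZMAT3 (ENSG00000172667, chromosome 3, 179017223 to 179072279) encodes a zinc finger protein that binds RNA and alters the splicing and stability of transcripts. It had 15.04, 15.7 and 14.2 TPM in control libraries and 16.1, 13.8 and 16.0 TPM after doxorubicin. The groups overlapped, and doxorubicin replicate 2 was lower than every control library. The log2 fold change was 0.03 (SE 0.10, 95% interval -0.20 to 0.26, limma adjusted p = 0.801; exact two-sided permutation test, p = 0.7). The upper end of this interval lies below the lower end of the intervals of the 7 genes that rose. ZMAT3 was not called under quantile normalization (0.25, limma adjusted p = 0.0180) or median ratio scaling (0.24, limma adjusted p = 0.0206). Under both it passed the p threshold and fell short of the fold threshold only. Like every listed gene, ZMAT3 had passed the authors' thresholds, so the absence of a call holds only for the fits given here. Its value of 0.03 on the deposited scale stood 0.31 above the median of all genes tested. With a filter of a mean of at least 5 TPM the median was 0.05, and ZMAT3 lay below it.

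**Figure D2:**
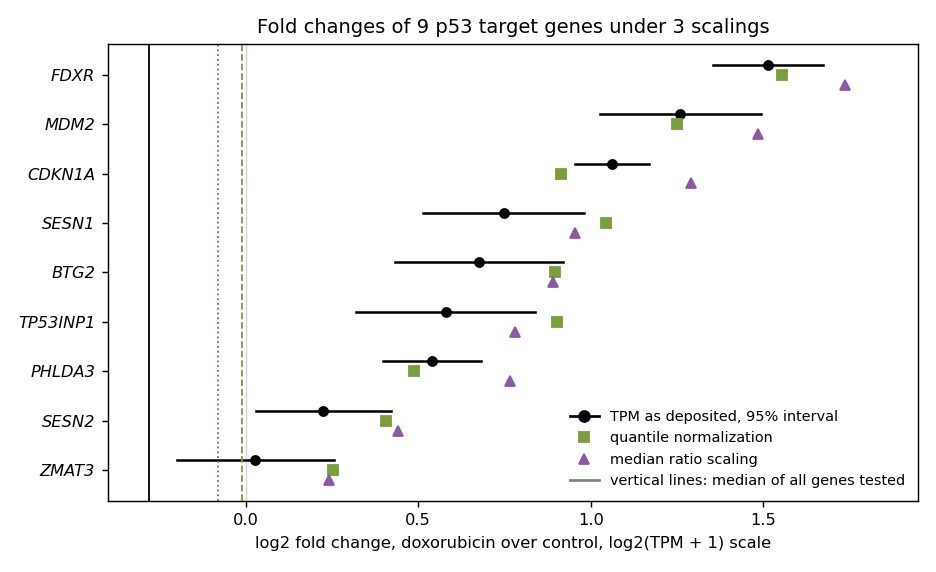
Log2 fold change of doxorubicin over control for the 9 genes, as deposited with the 95% interval from limma (black), after quantile normalization (green squares) and after median ratio scaling (purple triangles), with vertical lines at the median of all genes tested under each. FDXR, MDM2 and CDKN1A lead on the deposited scale (1.51, 1.26 and 1.06), and ZMAT3 is the lowest under all 3 scalings.

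In TPM, which is scaled per gene length, the control order was CDKN1A, PHLDA3, MDM2, FDXR, SESN2, ZMAT3, BTG2, SESN1 and TP53INP1, and no neighbours in this order overlapped between libraries. After doxorubicin BTG2 (19 TPM) moved ahead of ZMAT3 (15.3 TPM), and the rest of the order was the same. The libraries of SESN2 and BTG2 then overlapped, as did those of ZMAT3 and SESN1, so their order was not resolved. Set against the median of all genes, the 9 log2 fold changes were 1.80 for FDXR, 1.54 for MDM2, 1.34 for CDKN1A, 1.03 for SESN1, 0.96 for BTG2, 0.86 for TP53INP1, 0.82 for PHLDA3, 0.51 for SESN2 and 0.31 for ZMAT3. On this relative scale every one of the 9 genes stood above the typical gene of the table. Among the doxorubicin libraries, replicate 1 was the highest for 6 of the 9 genes, and replicate 3 was the lowest for 5 of the 9. Of the 1337 genes called higher, replicate 3 was the lowest doxorubicin library in 47.3%, while replicate 1 was the highest in 28.0% and replicate 2 in 47.0%.

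The promoters of MDM2, CDKN1A and FDXR are shown because these 3 genes were the only ones of the set with a fold change over 2. RefSeq windows from 250 bases before to 50 after each annotated start (GRCh38.p14) were found for 8 of the 10 genes, CCNG1 among them and PHLDA3 and TP53INP1 not, 16 windows in all. The MDM2 sequence is the second promoter of the gene, at chr12:68808767-68809016 on the + strand, and its capitals mark the best match to the p53 response element, at most 2 mismatches being allowed over the 20 bases of the element. The CDKN1A sequence is at chr6:36678464-36678657 on the + strand, and the FDXR sequence at chr17:74873032-74873244 on the - strand. Each is the longest stretch before the RefSeq start that is free of GENCODE exons of the gene. Both end short of that start, so the last bases before it are not printed. Their capitals mark GGGCGG, the GC box that Sp1 family factors bind.
MDM2: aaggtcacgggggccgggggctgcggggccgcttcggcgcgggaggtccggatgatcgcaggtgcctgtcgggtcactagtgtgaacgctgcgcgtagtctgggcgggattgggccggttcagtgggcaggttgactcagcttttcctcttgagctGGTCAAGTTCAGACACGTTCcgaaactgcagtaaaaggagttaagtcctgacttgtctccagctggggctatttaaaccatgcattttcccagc
CDKN1A: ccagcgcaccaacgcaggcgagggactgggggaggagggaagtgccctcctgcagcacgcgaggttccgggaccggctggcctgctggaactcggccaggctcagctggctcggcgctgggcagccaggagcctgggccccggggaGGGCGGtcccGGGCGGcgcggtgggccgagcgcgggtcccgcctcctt
FDXR: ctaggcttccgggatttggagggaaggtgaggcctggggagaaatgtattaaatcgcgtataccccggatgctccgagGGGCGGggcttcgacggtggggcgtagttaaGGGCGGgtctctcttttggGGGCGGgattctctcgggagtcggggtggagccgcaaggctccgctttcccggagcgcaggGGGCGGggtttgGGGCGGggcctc

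The MDM2 match, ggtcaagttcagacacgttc in capitals above, lies from -94 to -75 relative to the start (chr12:68808923-68808942). A match to the p53 element was found in 1 of the 8 genes with a window, against 0.82% of all 27305 genes with one. Elements with more than 2 mismatches, or outside these windows, were not searched for. GGGCGG on either strand was in the windows of all 8 genes (48.3% of all genes), 2 times in the CDKN1A stretch and 5 times in that of FDXR. CCAAT on either strand was in 7 of the 8 (39.7% of all genes), and TATAAA in 0 of the 8 (14% of all genes). These are matches of letters and no measure of binding. Gene-level TPM does not separate the MDM2 transcripts that begin at this promoter from those of the other.

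Genes of long span had lower log2 fold changes than short ones in the table as a whole, and the 9 genes differ in span from 4112 bp (BTG2) to 108383 bp (SESN1). The genes tested that had an annotated position were divided by span into 10 bins of 570 genes. SESN1, with a log2 fold change of 0.75, was in a bin with a median of -0.51, and MDM2 (42511 bp) at 1.26 was in a bin with a median of -0.42. CDKN1A (10880 bp) and FDXR (10535 bp) were in a bin with a median of 0.16, and BTG2 and PHLDA3 (4855 bp) in one with a median of 0.25. ZMAT3 (55057 bp) was at 0.03 where the median of its bin was -0.46, and SESN2 (22965 bp) and TP53INP1 (23440 bp) shared a bin with a median of -0.01. All 9 genes were thus above the median of genes of like span, by amounts that ran from 0.23 (SESN2) to 1.68 (MDM2).

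**Figure D3:**
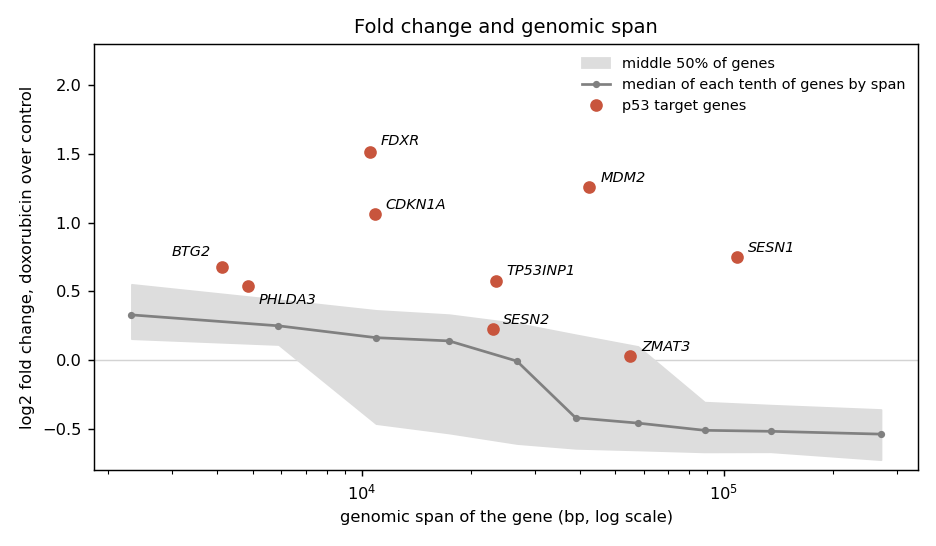
Log2 fold change against genomic span (bp, log axis) for the 9 genes in red, with the median (line) and the middle 50% (grey band) of each of 10 bins of the genes tested. MDM2 (1.26) and SESN1 (0.75) lie far above the medians of their bins (-0.42 and -0.51), and SESN2 and ZMAT3 lie inside the band.

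Of 15 relatives listed, 8 were in the table, of which 3 were called higher and 4 lower, with a median log2 fold change of -0.18 against -0.28 for all genes. The share called lower was close to the 49% of all genes, and 23.4% of all genes were called higher. MDM4, the partner of MDM2 that masks p53 without degrading it, fell from 2.77 ± 0.672 to 1.28 ± 0.430 TPM (log2 fold change -0.73), and it fell under each scaling. TOB2, of the BTG family, also fell under each scaling (-0.61). TP53INP2 (-0.51) and SESN3 (-0.42) were called lower on the deposited scale but not after quantile normalization. BTG1 (0.29), ZMAT5 (0.32) and ZMAT2 (0.27) rose, ZMAT2 not under quantile normalization. PHLDA2 was not called on the deposited scale, with 0.07, but was after median ratio scaling (0.29).

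A ratio of a gene to its relative within a library is not altered by a single factor per library, although quantile normalization can alter it, and 7 such pairs were compared on the deposited values, a comparison added after the values were seen. MDM2 over MDM4 was 13.1, 17.1 and 16.8 in control libraries and 130, 63.5 and 70.8 after doxorubicin. The MDM2 to MDM4 balance thus moved several-fold, with the widest spread of any pair, and MDM4 had 0.85 to 1.71 TPM in the doxorubicin libraries. SESN1 over SESN3 went from 4.70 ± 0.282 to 14.1 ± 0.628, TP53INP1 over TP53INP2 from 0.385 ± 0.0171 to 0.890 ± 0.0621 and SESN1 over SESN2 from 0.443 ± 0.0320 to 0.663 ± 0.0153 (SD, n = 3 each). BTG2 over BTG1 (0.351 to 0.472) and PHLDA3 over PHLDA2 (0.627 to 0.875) moved less. In these 6 pairs the groups did not overlap, each with the smallest p the design allows (exact two-sided permutation test, p = 0.1, adjusted over the 7 pairs p = 0.117). ZMAT3 over ZMAT2 was the exception, with 0.2002, 0.210 and 0.194 in control libraries and 0.157, 0.158 and 0.198 after doxorubicin (exact two-sided permutation test, p = 0.2, adjusted p = 0.2). Both genes of each pair had passed the authors' thresholds, and 80.7% of all genes tested were separated in either direction as single genes. How often ratios of other pairs are separated was not tested.

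**Figure D4:**
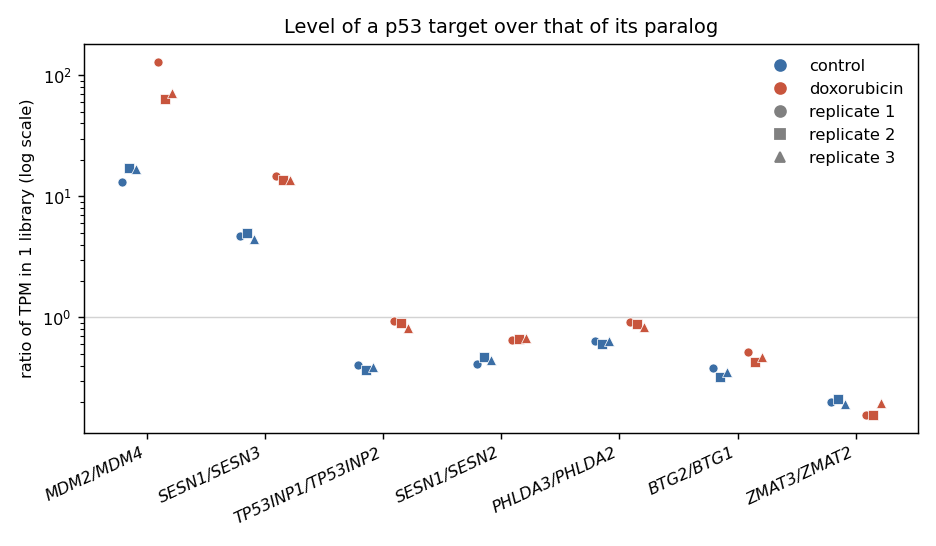
Ratio of the TPM of a p53 target to that of its relative in each library (log axis), control in blue and doxorubicin in red, with a symbol for each replicate. MDM2 over MDM4 shows the widest move, from a mean of 15.7 to 88.0, and ZMAT3 over ZMAT2 is the only pair whose groups overlap.

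Most of the listed genes that act on p53 itself were lower after doxorubicin. Of 21 regulators listed, 13 were in the table, of which 1 was called higher and 9 lower, against 23.4% and 49% of all genes, with a median log2 fold change of -0.45. The checkpoint kinases CHEK1 (-1.25), CHEK2 (-0.60) and ATM (-0.54), the ligases RFWD3 (-0.88) and RCHY1 (-0.43), MDM4 (-0.73), the acetyltransferases EP300 (-0.71) and CREBBP (-0.43) and the kinase HIPK2 (-0.45) were called lower. After quantile normalization 4 of the 9 (CHEK1, RFWD3, MDM4 and CHEK2) were still called lower, where 29.7% of all genes were, and after median ratio scaling ATM and EP300 were called as well, where 38% of all genes were. PPM1D, the phosphatase that dampens the p53 response and is itself a target, had 5.11, 4.66 and 4.66 TPM in control libraries and 6.97, 5.20 and 6.91 TPM after doxorubicin (log2 fold change 0.33, SE 0.13, limma adjusted p = 0.0405). The call was also made after quantile normalization (0.70) and median ratio scaling (0.52), but on the deposited scale it was lost without control replicate 2 or 3 or doxorubicin replicate 1 or 3, which left 0 regulators called higher. PML, CDKN2A and TP53BP1 were not called on the deposited scale, with 0.13, 0.16 and -0.17. PML was called higher after quantile normalization (0.30) and median ratio scaling (0.35), and CDKN2A after median ratio scaling only (0.39).

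Most of the other p53 targets tested also rose. Of 48 listed, 33 were in the table and 32 were tested, of which 20 were called higher and 3 lower, against 23.4% and 49% of all genes. The median log2 fold change was 0.39. The 5 largest rises were those of FUCA1, a lysosomal fucosidase (3.71 to 4.77 TPM in control and 16.3 to 19.5 TPM after doxorubicin), CYFIP2, an actin regulator (3.57 to 5.81 and 15 to 20.3 TPM), GDF15, a secreted stress cytokine (42.7 to 47.1 and 115 to 135 TPM), TP53I3, a quinone reductase (46.4 to 52.6 and 104 to 126 TPM), and BBC3, which encodes the death protein PUMA (8.18 to 9.46 and 16.9 to 21.8 TPM). Their log2 fold changes were 1.88, 1.79, 1.495, 1.23 and 1.09, so that FUCA1 and CYFIP2 had larger fold changes than any of the 9 genes. APAF1 of the apoptosome (-0.55), the repressor E2F7 (-0.42) and the stress factor ATF3 (-0.35) fell, but under quantile normalization only ATF3 was called lower and under median ratio scaling only APAF1. SFN, a 14-3-3 protein, was under the filter, at 0.16 to 0.25 TPM in control and 0.35 to 0.89 TPM after doxorubicin.

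Most cyclins and kinases that p21 binds fell in the libraries in which CDKN1A rose. Of 13 partners listed, 10 were in the table, of which 7 were called lower and 2 higher, against 49% and 23.4% of all genes. CDK1, the mitotic kinase, went from 14.6, 16.2 and 13.0 TPM in control libraries to 0.15, 0.09 and 0.28 TPM after doxorubicin. Its cyclins CCNB1 (66.7 ± 7.63 to 6.66 ± 0.499 TPM), CCNB2 (28.98 ± 3.11 to 1.39 ± 0.224 TPM) and CCNA2 (13.4 ± 1.61 to 1.17 ± 0.153 TPM, SD, n = 3 each) fell with it. The log2 fold changes of these 4 mitotic genes ran from -3.73 to -2.72 on the log2(TPM + 1) scale. That scale understates the fall of CDK1, which ended under 1 TPM, so these values do not rank the genes by fold. CDK2 (log2 fold change -0.85), CDK6 (-0.85) and CCNE2 (-1.14), listed at 0 in doxorubicin replicate 2, were also called lower. PCNA, the replication clamp that p21 binds and that is a p53 target as well, rose from 119 ± 4.90 to 191 ± 21.1 TPM (0.67), and CCND2 rose by 0.44. CCND1, the most abundant cyclin at 367 to 481 TPM over the 6 libraries, was not called on the deposited scale (0.16), but was called higher after median ratio scaling (0.38). The TPM of CDKN1A over the summed TPM of the 9 listed cyclins and kinases was 1.23, 1.16 and 1.31 in control libraries and 3.15, 3.33 and 2.69 after doxorubicin (exact two-sided permutation test, p = 0.1). Without CCND1, the sum of the other 8 was 155 to 191 TPM in control and 30.3 to 39.5 TPM after doxorubicin. Neither sum holds CDK4, CCND3 or CCNE1, which had no row. Both hold only genes past the authors' thresholds on these same libraries, so the ratio and its p are not independent of that choice.

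**Figure D5:**
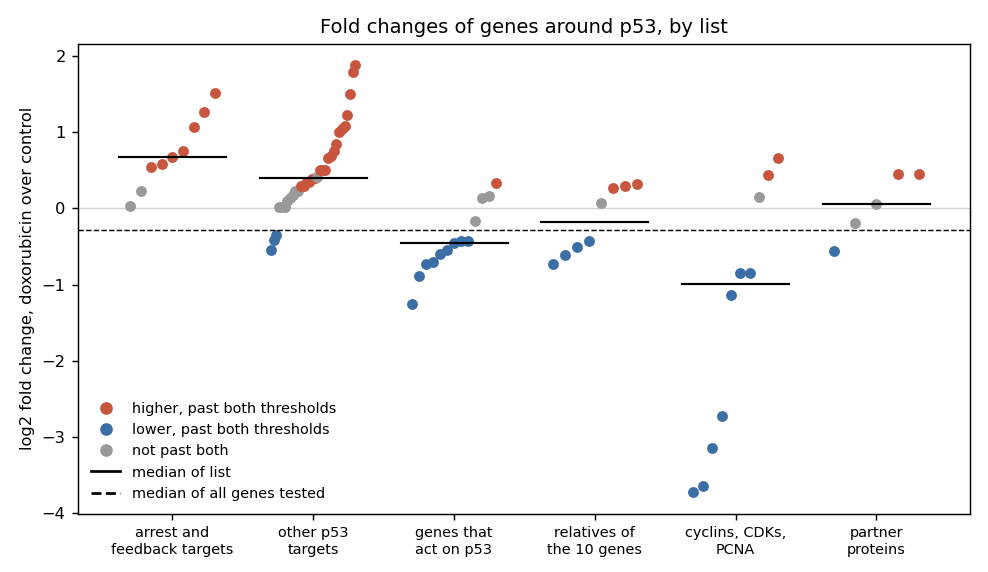
Log2 fold change of each gene tested, by list, with genes called higher in red, called lower in blue and not called in grey, the median of each list as a line and the median of all genes (-0.28) dashed. The arrest and feedback targets (median 0.68) and the other p53 targets (0.39) lie mostly above 0, and the regulators (-0.45) and the cyclins, kinases and PCNA (-0.997) mostly below it.

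Proteins that work with the products of the 10 genes were mostly outside the table, with 5 of 22 listed. FDX2, the ferredoxin of iron-sulphur cluster synthesis that takes electrons from FDXR, rose from 73.5 ± 4.50 to 102 ± 12.9 TPM (SD, n = 3 each; log2 fold change 0.46). FDX1, the other ferredoxin, had 6.10 ± 0.757 and 6.36 ± 0.293 TPM and was not called on the deposited scale, but was called higher after quantile normalization (0.42). GAK, a kinase that binds cyclin G, the product of CCNG1, rose by 0.45, SEH1L, a subunit of the GATOR2 complex that sestrins bind, was lower by a log2 value of -0.55, and CNOT1, the scaffold of the deadenylase complex that BTG2 joins, was not called (-0.19).

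Among the genes whose log2(TPM + 1) followed CDKN1A most closely over the 6 libraries were EPHX1, SULF2, IGFBP7 and H2AC8, with Pearson's r of 0.999932, 0.998638, 0.998632 and 0.998494. The 6 points are 2 groups of 3, so that any gene with a clear rise and close replicates has a high r, and 77 of the 5720 other genes had r over 0.99. EPHX1, a detoxifying epoxide hydrolase, had 68.0, 68.7 and 67.0 TPM in control libraries and 104, 103 and 100 TPM after doxorubicin. IGFBP7, a secreted binding protein of insulin-like growth factors, was at 224 to 236 TPM in control and 478 to 499 TPM after doxorubicin, its log2 fold change being 1.09 and that of CDKN1A 1.06. SULF2, a heparan sulfate sulfatase (0.81 to 1.08 and 13.6 to 16.2 TPM), and H2AC8, a histone H2A gene with near-identical copies that may share its reads (1.30 to 1.57 and 12.4 to 16.0 TPM), rose from near 1 TPM.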

How the data were processed

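RNA of WI-38 cells was sequenced, and 6 of 9 libraries (3 control, 3 doxorubicin) have columns in the deposited table. The labels list CASAVA, HISAT2, StringTie, RSEM, DESeq2 and edgeR among the authors' tools, with no role or version, and the mouse build GRCm38, although the gene identifiers are human. Which tool made the values is not given in the sources used here. The deposited values name no unit and were taken as TPM. The table holds only genes past the authors' fold and p thresholds on the same libraries, and the authors' columns of fold change, p-value and adjusted p-value were not used. As TPM keeps no depth, no interval from counts is given.

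The fit used log2(TPM + 1) of the 5721 of 6499 genes whose mean reached 1 TPM, and 2 group means were fitted with limma 3.58.1 (eBayes, trend and robust) in R 4.3.3. The design foresaw this fit for normalized values. A gene was called at a fold change over 1.2 and an unadjusted p under 0.05, the study's thresholds, and 1385 of the genes tested had a fitted fold under 1.2, so the TPM scale is not that of the authors' selection. The fit was tested on simulated data. Exact permutation tests over libraries were run in Python 3.11.15 with NumPy 2.4.6, and those of the 7 pairs were adjusted in SciPy 1.17.1.

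The members and all gene lists were chosen with earlier results of these data known. The genes named are the 10 of the rule, any listed regulator, relative or partner in the table, the 5 largest rises and every fall among other p53 targets, and the 5 genes with the highest Pearson r with CDKN1A, of which 1 is not reported here. Marker genes check the cell type. SFN, the overlapping genes CPM and NDUFAF6, and CDK4, CCND3 and CCNE1, which had no row, are named beside a result. Positions are those of GENCODE 29 on GRCh38 by Ensembl identifier, and promoters those of RefSeq. Alternatives were another pseudocount (0.1), other filters, quantile normalization, median ratio scaling, a replicate block, plain eBayes, other fold thresholds and fits without each library. Ratios to relatives, and those without each library, were added after the data were seen.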

Additional observations from a re-analysis of the deposited data

How the results depend on the processing

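The count of the 9 genes called higher was 7 in all alternatives except quantile normalization and median ratio scaling (8 each, with SESN2), a fold threshold of 1.5 (5) and a fold threshold of 2 (3, namely FDXR, MDM2 and CDKN1A), and CDKN1A was called under all of them, its log2 fold change being 1.04 to 1.09 when single libraries were left out. ZMAT3 changed sign, without a call, to -0.0073 without control replicate 3, -0.0097 without doxorubicin replicate 1 and -0.0030 without doxorubicin replicate 3, and its highest value without a library was 0.0957. Over the whole table a fold threshold of 1.5 left 1943 genes changed and one of 2 left 463, against 4142. The share of called genes that were higher was 32.3%, and it became 53.1% after quantile normalization and 53.7% after median ratio scaling. Quantile normalization left 2 regulators higher and 4 lower, 1 other target lower and 2 relatives lower. Median ratio scaling gave 3 regulators higher and 1 other target lower, and CCNE2 dropped under the filter. A filter of a mean of at least 5 TPM left 1 p21 partner higher and 2 relatives lower. A fold of 1.5 left 0 regulators higher and 5 lower, 11 other targets higher and 0 lower, 1 p21 partner higher, 0 relatives higher and 2 lower, and 0 member partners either way. A fold of 2 left 0 regulators higher and 1 lower, 7 other targets higher and 0 lower, and 0 p21 partners higher, with 0 relatives and 0 member partners either way. Without single libraries, 0 to 1 regulators were called higher. Replicate numbers are shared by the groups but did not pair the libraries (correlation of deviations -0.06, -0.19 and -0.23), and with the replicate number as a block 0 regulators were called higher, the same 7 of the 9 genes were called, and the table gave 1288 genes higher and 2750 lower against 1337 and 2805. The cause of these changes was not tested, other than where a stricter threshold leaves fewer genes by construction. With 3 libraries a group and no depth, low genes such as MDM4 and CCNE2 are the least certain.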
